A study of Mus musculus with 12 samples.

Results

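The Hox genes are homeodomain transcription factor genes, and the 38 analysed here lie in the 4 mouse Hox clusters, Hoxa, Hoxb, Hoxc and Hoxd. They are members by gene name and position, out of 21938 protein-coding genes of the annotation, and the choice to describe them was made with earlier results of these data known. Peaks were read over each gene body with 5 kb on each side, and along each cluster with 100 kb on each side. From the first to the last base of its members, the Hoxa cluster spans 98.5 kb of chromosome 6, Hoxb 174 kb of chromosome 11, Hoxc 116 kb of chromosome 15 and Hoxd 96.8 kb of chromosome 2 (mm10).

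The study profiled acetylation of lysine 27 and trimethylation of lysine 4 on histone H3 (H3K27ac and H3K4me3) by ChIP-seq, which recovers the DNA bound to a modified histone. The cells were mesenchymal stem cells (MSCs) from C57BL6/N mice of 3 to 5 months, given in the labels as bone-marrow MSCs and in the study's methods as cells from the bone of the hind limbs, sorted as CD45-, Ter-119-, Sca-1+ and CD140a+. They were cultured in 2% oxygen (hypoxia) or 21% oxygen (normoxia), and according to the methods all groups came from cells first grown at low oxygen. Each mark had 2 libraries per oxygen level, 4 input libraries had no peak list, and each mark and oxygen level gave 1 list made from both of its libraries. The lists therefore hold no value per library and no depth, no difference below has a replicate check, and no test was possible. Intervals given with a share are 95% Wilson intervals, which cover counting error only.

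In development the Hox genes are switched on in the order in which they stand on the chromosome, from the 3′ (anterior) to the 5′ (posterior) end of a cluster, and this order is mapped onto the body axis. The posterior members also pattern the limbs, and stromal cells of the adult keep much of the Hox pattern of the place they came from. Polycomb complexes hold silent Hox genes closed, whereas Trithorax complexes lay down H3K4me3 at starts that are, or can become, active, and H3K27ac marks active promoters and enhancers.

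The identity of the cells was checked first. Of 12 genes listed as markers of MSCs, 8 carried both marks at a start, Pdgfra and Prrx1 among them, beside 36.5% of all protein-coding genes. Eng, Nt5e and Lepr carried H3K4me3 alone, as 22.4% of all genes did, and Ly6a, the gene of Sca-1, carried H3K27ac without H3K4me3. Of the haematopoietic genes, values are given for 6, and Ptprc, which encodes CD45, Spi1, Cd3e, Itgam, Gata1 and Lyz2 carried neither mark, the state of 39.9% of all genes. Of 4 endothelial genes, 3 carried neither mark and Kdr carried H3K4me3 alone. Pitx1, a selector of the hind limb, carried both marks, Tbx4 carried H3K4me3 alone, and Tbx5, its counterpart in the forelimb, carried neither.

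The peak lists were one joint division of the genome: no peak overlapped a peak of another list without being identical to it. Hypoxia-only and normoxia-only peaks are those with no base in the corresponding list of the other condition, and both kinds are called condition-specific. Each Hox start was then given a state from peaks within 1000 bp of any coding start at either oxygen level. H3K4me3 lay at the start of 28 of 38 Hox genes in hypoxia, where it lay at 58.9% of all protein-coding genes. The normoxia list, which held nearly the same H3K4me3 peaks over the genome, gave the same 28 of 38, again beside 58.9% of all genes. Without the lowest-scoring 25% of each list, H3K4me3 remained at 15 of the 38 starts at each oxygen level, beside 49.3% of all genes. The place of the Hox genes relative to all genes thus depends on this filter. The filter acts unequally, since the top scores differ between chromosomes, as described with the scores, and it removed every H3K4me3 peak of Hoxd. H3K27ac lay at 20 of the 38 starts in hypoxia and at 18 in normoxia, beside 37.6% and 37% of all genes.

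Both marks were found at 20 Hox genes, or 52.6% (37.3 to 67.5), beside 36.5% of all protein-coding genes. They were Hoxa3, Hoxa4, Hoxa6, Hoxa7, Hoxa9, Hoxa10, Hoxa11, Hoxa13, Hoxb2, Hoxc5, Hoxc6, Hoxc8, Hoxc9, Hoxc10, Hoxc11, Hoxc13, Hoxd3, Hoxd8, Hoxd9 and Hoxd10. The coding start that the annotation gives Hoxa3 lies between Hoxa6 and Hoxa7, far from most of its body, and Hoxd3 carried marks at the outermost of its 3 coding starts alone. H3K4me3 alone marked 8 genes, namely Hoxb4, Hoxb6, Hoxb7, Hoxb8, Hoxb9, Hoxd1, Hoxd11 and Hoxd13 (21.1%, 11.1 to 36.3, beside 22.4% of all genes). H3K27ac alone marked 0 of the 38, beside 1.16% of all genes. The remaining 10, Hoxa2, Hoxa5, Hoxb1, Hoxb3, Hoxb5, Hoxb13, Hoxc4, Hoxc12, Hoxd4 and Hoxd12, carried neither mark (26.3%, 15 to 42, beside 39.9% of all genes). The share with both marks was thus higher than over all genes and the share with neither mark lower, although the interval of the latter reached the level over all genes. The intervals treat the genes as independent, but 1 peak (chr6:52209001-52249500) gave both marks to Hoxa3, Hoxa6, Hoxa7, Hoxa9, Hoxa10 and Hoxa11. They therefore cannot decide whether either share differs from that of all genes. In bulk chromatin, both marks at a start may come from the same or from different cells.

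The share with both marks ran from 10% to 80% between clusters and from 42.9% to 62.5% between positions along them. Both marks lay at 8 of 10 Hoxa genes, 7 of 9 Hoxc genes, 4 of 9 Hoxd genes and 1 of 10 Hoxb genes. In Hoxb, 5 of the 10 starts carried H3K4me3 without H3K27ac. By position, 10 of 16 posterior genes (numbers 9 to 13), 7 of 15 central genes (4 to 8) and 3 of 7 anterior genes (1 to 3) carried both marks, with intervals of 38.6 to 81.5%, 24.8 to 69.9% and 15.8 to 75% that overlapped. The intervals of Hoxa, 49 to 94.3%, and Hoxb, 1.79 to 40.4%, did not overlap. Neighbouring starts can share a peak, and 1 peak set the state of most of the Hoxa genes with both marks. Members of a cluster are therefore not independent, and the intervals cannot decide whether the clusters differ.

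**Figure D1:**
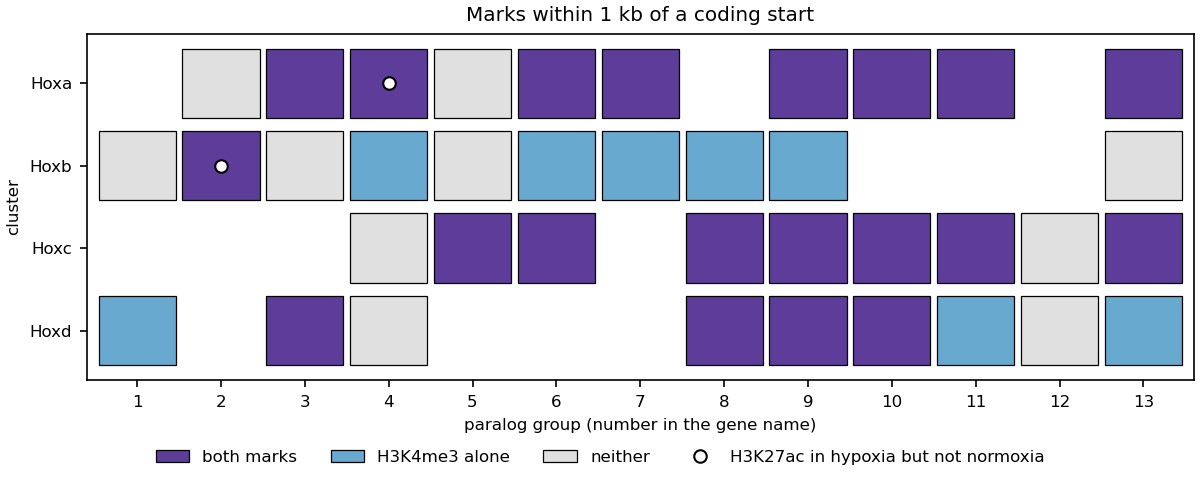
Each filled square is a Hox gene placed by its cluster (rows) and the number in its name (columns), coloured by the marks within 1 kb of a coding start at either oxygen level, with a white dot where H3K27ac was called in hypoxia and not in normoxia. Hoxa and Hoxc are mostly purple (both marks), Hoxb holds 5 blue squares (H3K4me3 alone), and the dots mark Hoxa4 and Hoxb2.

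Genes with the same number in different clusters are paralogs, copies of one ancestral gene. Paralog group 10, whose members pattern the thigh segment of the limb, was the only group of 3 or more with both marks at every member analysed (Hoxa10, Hoxc10 and Hoxd10). In group 9, Hoxa9, Hoxc9 and Hoxd9 carried both marks and Hoxb9 carried H3K4me3 alone. In group 11, which patterns the segment below the knee or elbow, Hoxa11 and Hoxc11 carried both marks and Hoxd11 carried H3K4me3 alone. In group 13, which patterns the hands and feet, Hoxa13 and Hoxc13 carried both, Hoxd13 carried H3K4me3 alone and Hoxb13, known for its role in the prostate, carried neither. Both members of group 12, Hoxc12 and Hoxd12, carried neither mark although each lies between marked posterior genes. Paralogs of one group were therefore often in different states, with Hoxb the copy that lacked H3K27ac in groups 6, 7, 8 and 9.

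The DNA at starts in different states is shown next, 1 gene for each state plus a CpG-rich start without a mark. The bases are the 250 before a RefSeq start (GRCm38.p6), in lower case, and capitals mark ACGTG or GCGTG on either strand, the core letters bound by hypoxia-inducible factors (a CACGTG counts as 2 matches). Promoter entries were matched by symbol for 22 of the 38 genes. Hoxa10 stands for both marks and is shown at both of its starts, chr6:52234940-52235189 and chr6:52240855-52241104 on the minus strand, each wholly inside peaks of both marks. Hoxd11 stands for H3K4me3 alone, at chr2:74682073-74682322 on the plus strand. Hoxd4 at chr2:74721728-74721977 (plus strand) and Hoxa5 at chr6:52204588-52204837 (minus strand) carried neither mark.
Hoxa10 inner start: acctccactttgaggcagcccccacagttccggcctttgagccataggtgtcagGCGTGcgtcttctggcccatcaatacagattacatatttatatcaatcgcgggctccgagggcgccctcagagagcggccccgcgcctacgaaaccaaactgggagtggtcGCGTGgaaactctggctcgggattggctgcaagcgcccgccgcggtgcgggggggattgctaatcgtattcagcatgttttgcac
Hoxa10 outer start: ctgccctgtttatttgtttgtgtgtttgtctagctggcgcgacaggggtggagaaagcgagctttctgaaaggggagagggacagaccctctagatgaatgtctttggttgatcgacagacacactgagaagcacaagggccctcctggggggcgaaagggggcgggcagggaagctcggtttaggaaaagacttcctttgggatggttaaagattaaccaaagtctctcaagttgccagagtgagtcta
Hoxd11: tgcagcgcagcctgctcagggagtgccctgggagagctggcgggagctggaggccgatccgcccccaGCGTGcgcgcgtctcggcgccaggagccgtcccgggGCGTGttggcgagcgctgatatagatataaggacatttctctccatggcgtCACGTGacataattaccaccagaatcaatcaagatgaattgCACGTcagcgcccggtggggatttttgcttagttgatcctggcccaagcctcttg
Hoxd4: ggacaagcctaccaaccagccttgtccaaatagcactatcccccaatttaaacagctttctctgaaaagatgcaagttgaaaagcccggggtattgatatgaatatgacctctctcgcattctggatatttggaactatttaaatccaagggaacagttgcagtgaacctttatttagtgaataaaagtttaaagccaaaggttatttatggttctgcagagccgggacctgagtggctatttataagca
Hoxa5: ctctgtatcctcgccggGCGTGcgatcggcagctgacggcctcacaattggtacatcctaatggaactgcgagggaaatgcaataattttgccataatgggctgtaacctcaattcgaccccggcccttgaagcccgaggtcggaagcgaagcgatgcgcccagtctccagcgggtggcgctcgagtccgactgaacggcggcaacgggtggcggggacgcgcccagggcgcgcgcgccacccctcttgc
These stretches are examples and carry no comparison of the states. The 2 Hoxa10 stretches hold 20 and 7 CpGs and lie in the same peak, Hoxd11 holds 20 CpGs and Hoxd4 holds 3. Hoxa5, a regulator of lung and sternum development, holds 28 CpGs in these 250 bases and the nearest peak of either mark lay 4414 bp from its start. Matches of the capital letters numbered 5 at Hoxd11, 2 at the inner Hoxa10 start, 1 at Hoxa5 and 0 at the outer Hoxa10 start and at Hoxd4. Over the 300 bases of each entry, 14 of the 24 Hox promoters (58.3%) held a match, beside 43.8% of 32851 promoters in the table.

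Over the 2000 bp around the outermost coding start, the Hox genes ranged from 45.1% to 67.3% GC. Their median in each state was above the 51.4% median of all protein-coding genes. The median number of CpGs was 88 with both marks, 117 with H3K4me3 alone and 72 with neither mark, where all protein-coding genes gave 98, 79 and 19. The median GC content of the Hox genes was 55.9% with both marks, 58.9% with H3K4me3 alone and 54% with neither mark. All protein-coding genes gave medians of 54.9%, 53.7% and 45.3% for the same states. The observed over expected CpG ratio followed the same pattern in the genes with neither mark, with a median of 0.469 over 10 Hox genes and 0.186 over all such genes. With both marks the Hox median was lower, 0.551 against 0.671, and with H3K4me3 alone it was higher, 0.679 against 0.569. The unmarked Hox starts were mixed: Hoxa5 had a ratio of 0.886, the highest of the 38, while Hoxc4, Hoxd4 and Hoxb3 had the 3 lowest, at 0.173, 0.215 and 0.231. Those last 3 genes each have 2 coding starts, so the values do not describe their other start. The state came from any coding start, and it can belong to another start than the composition. Hoxb6 and Hoxb8, counted as H3K4me3 alone, carried neither mark at their outermost start.

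The 10 genes without H3K4me3 differed in how far they stood from a peak. Hoxb13 (chr11:96194316-96197447) was the most isolated, 68816 bp from the nearest H3K4me3 peak. Hoxb1 (chr11:96365752-96368256), an early gene of the hindbrain, lay 11252 bp away. The distance was 5744 bp for Hoxc12 (chr15:102936757-102938609), 5478 bp for Hoxd4 (chr2:74711929-74729160), 4488 bp for Hoxd12 (chr2:74675013-74677705) and 4414 bp for Hoxa5 (chr6:52201754-52204587). Hoxc4 (chr15:103018934-103036852), Hoxa2 (chr6:52162417-52164831), Hoxb5 (chr11:96303336-96306121) and Hoxb3 (chr11:96323326-96347930) stood within 2326 to 3434 bp of a peak. These distances are from the coding start nearest to a peak. A second Hoxc4 start lay 18895 bp from any peak, and a second Hoxb3 start 7732 bp. For most of the 10 genes the marks of the cluster ended a few kb from the nearest coding start. The annotation also gives Hoxd4 an outer start that it shares with Hoxd3 within a few bases, and that start carried both marks.

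Across the clusters, peaks took up far more of the sequence than across the genome. H3K27ac covered 28.7% of the 485 kb of the 4 clusters in hypoxia and 27.9% in normoxia, against 3.29% and 3.23% of the genome. H3K4me3 covered 27.3% at each oxygen level, against 1.45% of the genome. Hoxb stood apart from the other clusters: H3K27ac covered 1.72% of it in hypoxia and 0% in normoxia, and H3K4me3 covered 8.34%. The Hoxb span includes the stretch from Hoxb13 to the peak at Hoxb9 (from chr11:96270501), which held no peak of either mark and lowers these shares. The cover of Hoxb without that stretch was not computed. In Hoxa the covers were 50.7% and 48.6% for H3K27ac and 48.6% for H3K4me3. In Hoxc H3K27ac covered 55.6% in hypoxia and 56.5% in normoxia, H3K4me3 40.5%, and in Hoxd the shares were 22.7%, 22.7% and 23.9%. The covers fell steeply outside the clusters, where the 100 kb on each side held 0 to 5.06% H3K27ac and 1 to 4.56% H3K4me3.

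**Figure D2:**
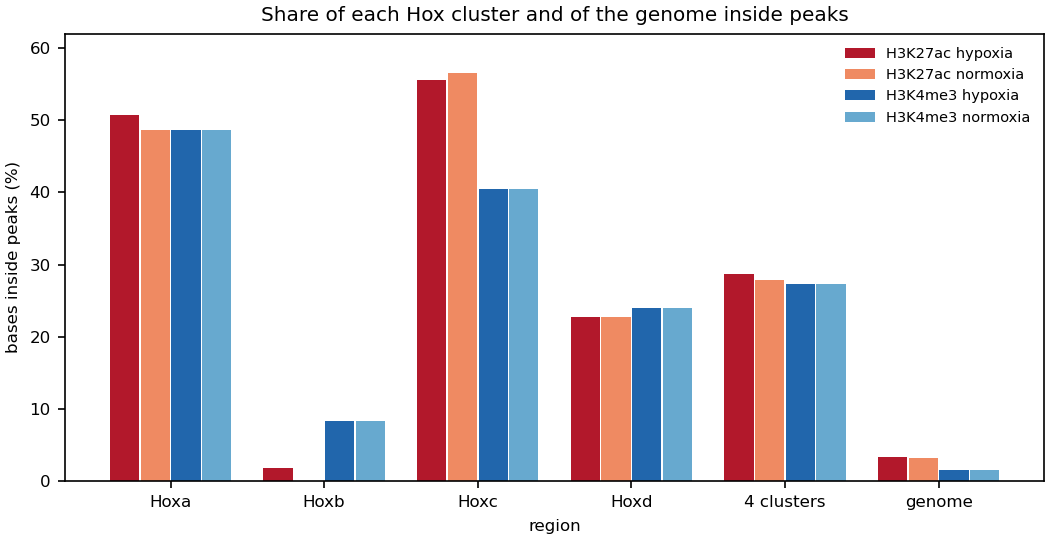
Bars give the percentage of bases inside peaks of each list (red and orange H3K27ac, dark and light blue H3K4me3, hypoxia and normoxia in each pair) for each Hox cluster, the 4 clusters together and the genome. Hoxa and Hoxc reach 40.5 to 56.5% and Hoxd 22.7 to 23.9%, above a genome level of 1.45 to 3.29%. Hoxb lies above the genome for H3K4me3 (8.34%) and below it for H3K27ac (1.72% in hypoxia and 0% in normoxia). Its span includes a long stretch without peaks between Hoxb13 and Hoxb9, which lowers these shares.

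The order of the marks along each cluster is drawn in the map of called peaks. In Hoxa the marks formed a long block from just outside Hoxa6 to beyond Hoxa11, then a gap and a block over Hoxa13. On the anterior side of the block, Hoxa held an H3K4me3 peak within the annotated Hoxa3 body and, over Hoxa4, an H3K4me3 peak that touched the peak of both marks at the Hoxa4 start. In Hoxc they ran from Hoxc11 to Hoxc5 with gaps in H3K4me3 that H3K27ac filled. In Hoxd both marks lay from Hoxd10 to Hoxd3, while the starts of Hoxd13, Hoxd11 and Hoxd1 had H3K4me3 alone. An H3K27ac peak without H3K4me3 covered 40.4% of the Hoxd11 body at both oxygen levels. Hoxb had separate H3K4me3 islands at Hoxb9, Hoxb7 and Hoxb8, Hoxb6, Hoxb4 and Hoxb2.

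**Figure D3:**
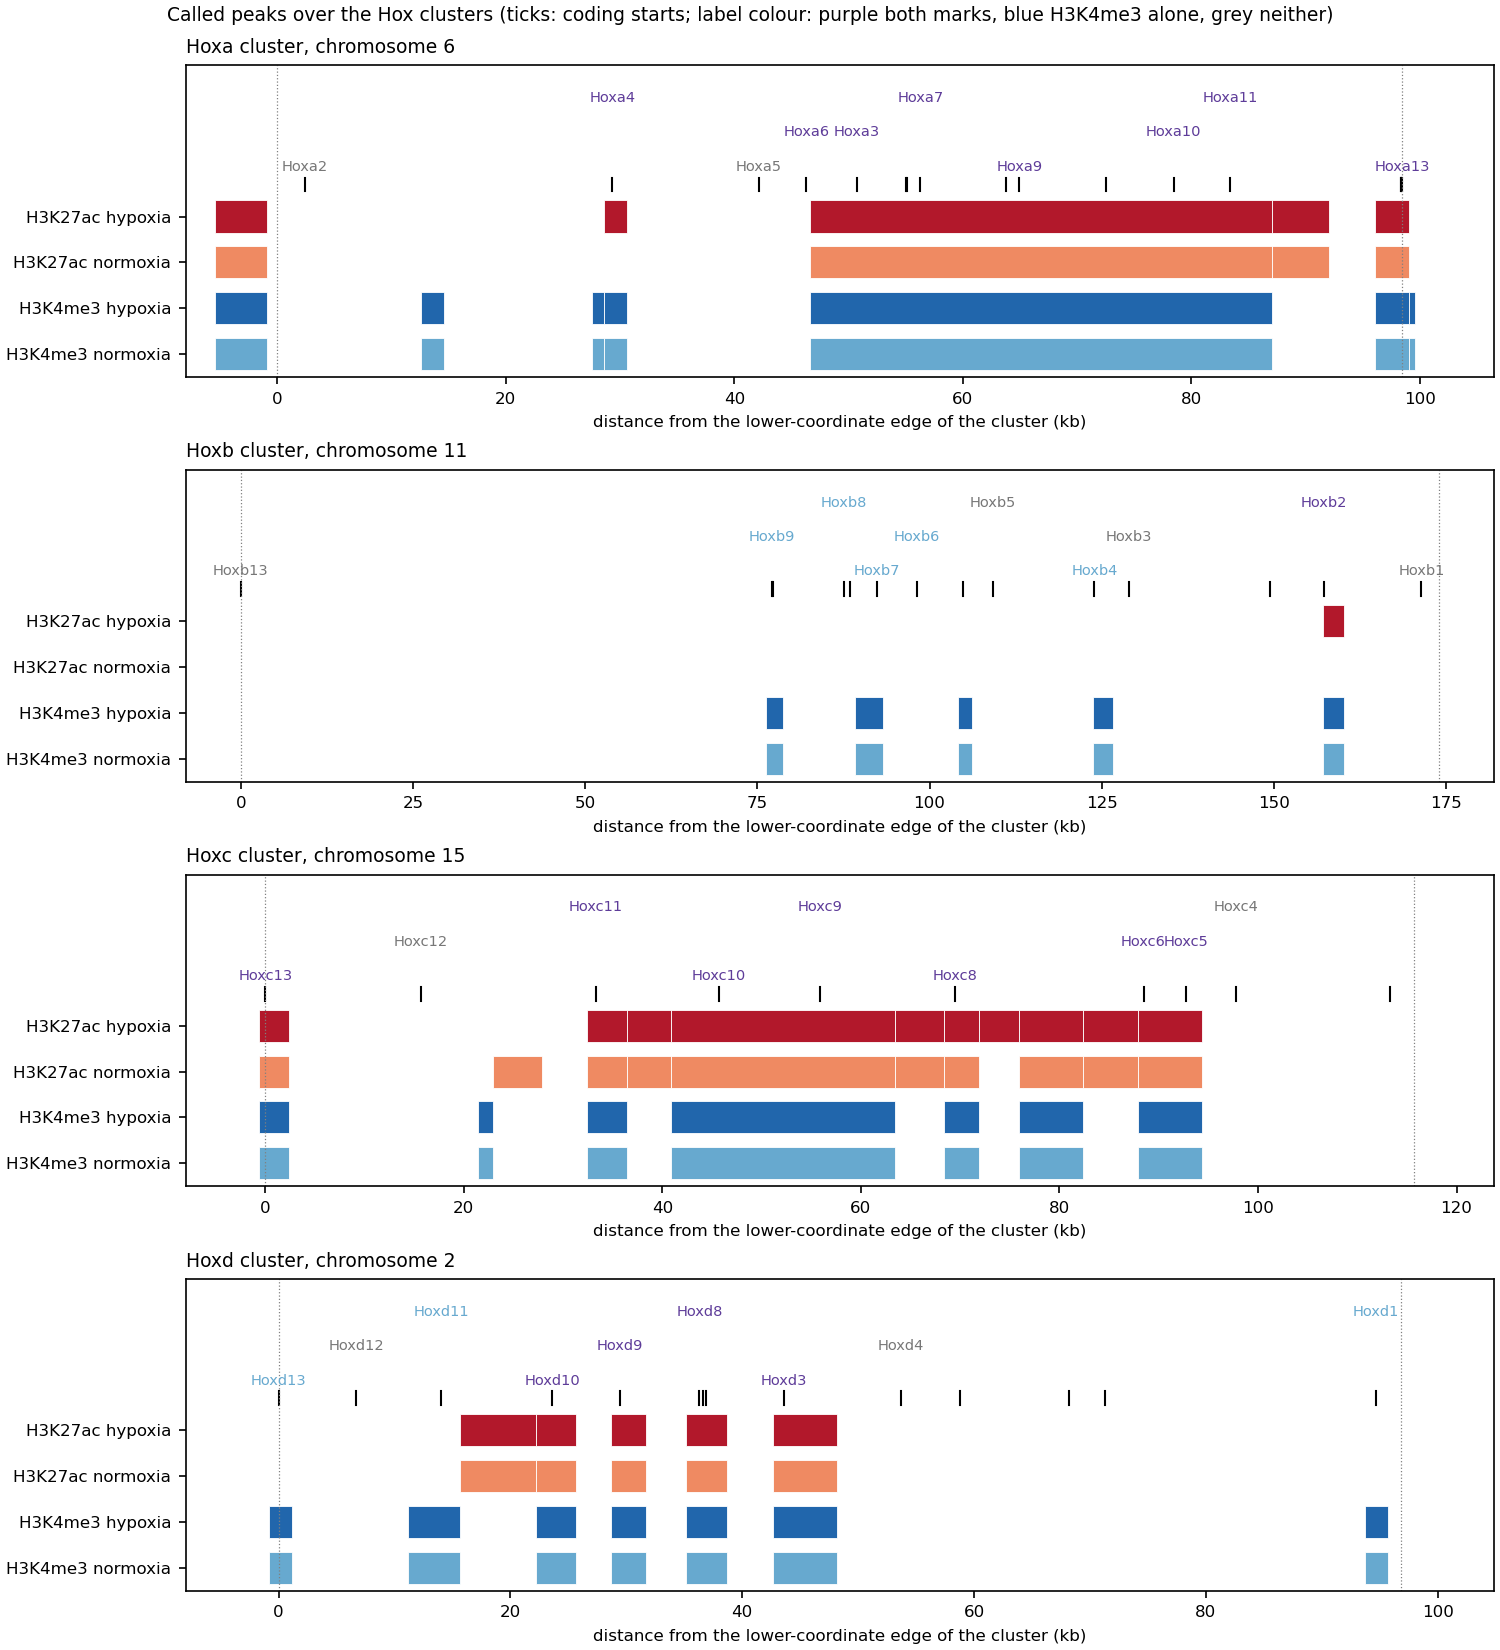
For each cluster, the x axis is the distance in kb from its lower-coordinate edge, the 4 coloured tracks are the peaks of each list, black ticks are coding starts, and gene names are purple (both marks), blue (H3K4me3 alone) or grey (neither). The Hoxa block of 40.5 kb is shared by the 4 lists, Hoxb has a single H3K27ac peak, in hypoxia, and the Hoxc run of H3K27ac is unbroken over 62 kb in hypoxia and interrupted in normoxia.

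The Hoxa block was 1 H3K4me3 peak of 40.5 kb (chr6:52209001-52249500), the widest of 14606 in the list. The next widest in a Hox cluster was a 22.5 kb peak over Hoxc10 and Hoxc9 (chr15:102962001-102984500), which ranked 3 in the list. The median H3K4me3 peak was 2500 bp wide. The widest H3K4me3 peaks of the other clusters were ordinary by comparison, at 5.5 kb over the outer Hoxd3 start (chr2:74711001-74716500, rank 417) and 4 kb from the Hoxb8 body to the Hoxb7 start (chr11:96283501-96287500, rank 1192). Hoxa7, Hoxa9, Hoxa10, Hoxa11 and Hoxc10 lay entirely under H3K4me3 from the first to the last base of the gene.

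The same intervals were less unusual for H3K27ac. The 40.5 kb Hoxa peak ranked 135 of 15203 in hypoxia and 133 of 14832 in normoxia, and the 22.5 kb Hoxc peak ranked 446 and 442. The widest H3K27ac peak of Hoxd was 6.5 kb, from the Hoxd11 body towards Hoxd10 (chr2:74684001-74690500), and that of Hoxb was the 3 kb peak at Hoxb2 (chr11:96351501-96354500). Because a peak ends wherever any list changes, touching H3K27ac peaks were also joined into runs. Hoxa then held a run of 45.5 kb at both oxygen levels, and Hoxc a run of 62 kb in hypoxia that ranked 70 of 12835 (chr15:102953501-103015500). In normoxia the Hoxc run was in 2 pieces of 39.5 and 18.5 kb.

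**Figure D4:**
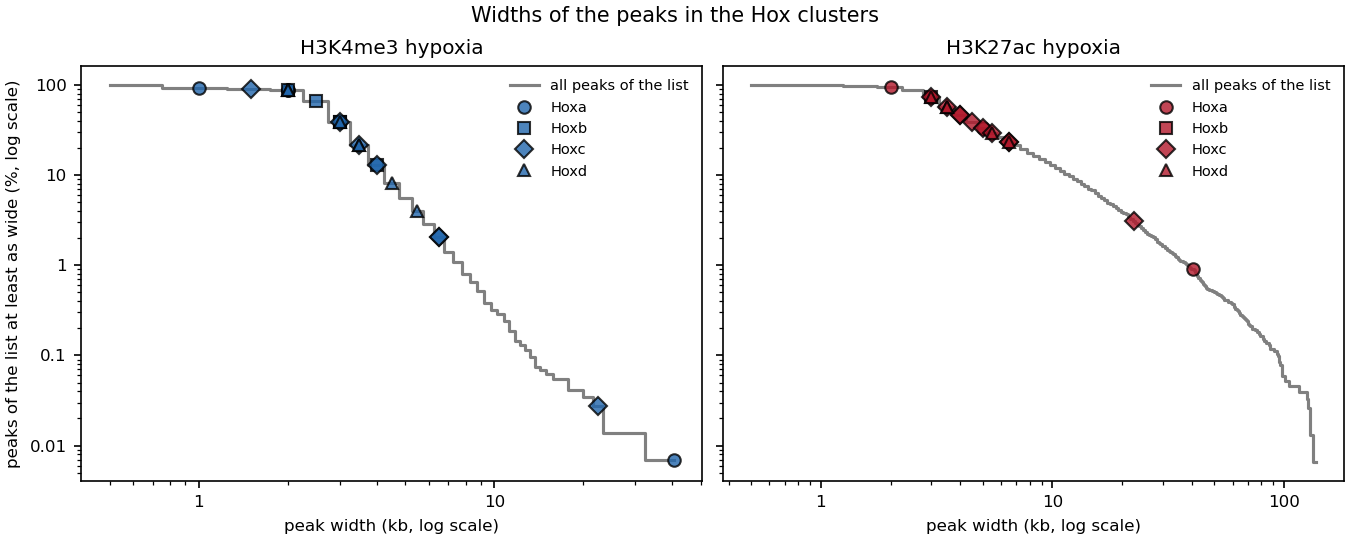
Peak width (x axis, kb, log scale) against the percentage of peaks of the list that are at least as wide (y axis, log scale), for H3K4me3 and H3K27ac in hypoxia, with the grey line for all peaks and symbols for the peaks of each Hox cluster. The Hoxa circle at 40.5 kb is the end of the H3K4me3 line, with the Hoxc diamond at 22.5 kb close to it, whereas wider peaks exist in the H3K27ac list.

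The 31 intervals called in the clusters were divided among 14 with both marks, 7 with H3K27ac alone and 10 with H3K4me3 alone. Of 21 H3K27ac peaks in the clusters, 14 also carried H3K4me3, against 48.5% of all H3K27ac peaks. Of 24 H3K4me3 peaks in the clusters, the same 14 carried H3K27ac, against 51.2% of all H3K4me3 peaks. The 7 H3K27ac peaks without H3K4me3 lay mainly in Hoxc, which held 5 of them, with 1 beyond Hoxa11 (chr6:52249501-52254500) and 1 from the Hoxd11 body towards Hoxd10. Of the 10 H3K4me3 peaks without H3K27ac, Hoxb held 4, Hoxd 3, Hoxa 2 and Hoxc 1. H3K27ac without H3K4me3 is a usual state of enhancers. In Hoxc, 4 of the 5 filled the space between neighbouring H3K4me3 peaks.

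The comparison of the oxygen levels asked which Hox genes carried a mark in 1 condition alone. For H3K4me3 there were none: 0 of 24 cluster peaks were condition-specific, beside 0.0616% of all 14609. For H3K27ac, 4 of 21 cluster peaks were condition-specific (19%, 7.67 to 40). The 3 hypoxia-only peaks stand beside 3.82% of all H3K27ac peaks, and the 1 normoxia-only peak beside 1.41%. The count is small, and all 4 peaks had low scores, between 54 and 67 on the authors' scale, where 50 was the lowest value. None of the 4 passed the filter that leaves out the lowest-scoring 25% of each list, which kept H3K27ac scores of at least 73 in hypoxia and 71 in normoxia. Over the genome 21.1% of hypoxia-only and 16.5% of normoxia-only H3K27ac peaks passed it. The descriptions of the 4 peaks that follow therefore rest on low-scoring calls.

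The first hypoxia-only peak covered the start of Hoxa4 (chr6:52191001-52193000), a central gene of the neck and upper trunk. Its H3K27ac score was 59 in hypoxia, with no H3K27ac peak in normoxia within 17248 bp of the Hoxa4 start, and its H3K4me3 score was 125 at both oxygen levels. The second covered the coding start and most of the body of Hoxb2 (chr11:96351501-96354500), a hindbrain gene, with an H3K27ac score of 54 in hypoxia and an H3K4me3 score of 69 at both levels. It was the only H3K27ac peak of the whole Hoxb cluster, and in normoxia the nearest H3K27ac peak lay 285131 bp from the Hoxb2 start. Hoxa4 and Hoxb2 thus account for the difference between 20 and 18 starts with H3K27ac.

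The third hypoxia-only peak (chr15:102993001-102997000, score 67) ran from the end of the Hoxc8 body into the space before Hoxc6 and carried no H3K4me3. Shared H3K27ac peaks touched it on both sides, so it is the piece that joined the 62 kb Hoxc run in hypoxia. The normoxia-only peak (chr15:102944001-102949000, score 57) covered the whole of Hotair, the antisense long non-coding RNA of the Hoxc cluster that is known for binding Polycomb. It carried no H3K4me3, although a 1.5 kb H3K4me3 peak touched it on the side of Hoxc12.

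The central 300 bases of 3 of these peaks are shown with the same capitals, since they are the Hox sequences whose call differed between the oxygen levels. The centre of the Hoxb2 peak lies in exons and is not shown. The Hoxa4 stretch (chr6:52191851-52192150) begins 98 bases before the Hoxa4 start, which is on the minus strand, and lies in an intron of the annotated Hoxa3 gene. The Hoxc8 to Hoxc6 stretch (chr15:102994851-102995150) lies in an intron of the annotated Hoxc5 gene, and the Hotair stretch (chr15:102946351-102946650) in an intron of Hotair. All 3 are mm10, plus strand.
Hoxa4 peak, hypoxia-only: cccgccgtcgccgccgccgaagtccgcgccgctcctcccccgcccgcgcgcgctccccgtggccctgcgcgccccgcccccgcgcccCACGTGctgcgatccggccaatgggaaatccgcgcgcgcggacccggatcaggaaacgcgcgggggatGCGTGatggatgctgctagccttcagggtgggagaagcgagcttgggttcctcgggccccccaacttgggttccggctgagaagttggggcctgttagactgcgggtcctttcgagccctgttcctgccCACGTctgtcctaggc
Hoxc8 to Hoxc6 peak, hypoxia-only: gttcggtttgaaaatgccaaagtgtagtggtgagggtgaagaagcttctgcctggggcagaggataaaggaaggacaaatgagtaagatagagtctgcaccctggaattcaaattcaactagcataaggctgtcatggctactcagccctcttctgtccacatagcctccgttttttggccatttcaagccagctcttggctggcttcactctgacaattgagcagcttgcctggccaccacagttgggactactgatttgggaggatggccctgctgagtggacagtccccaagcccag
Hotair peak, normoxia-only: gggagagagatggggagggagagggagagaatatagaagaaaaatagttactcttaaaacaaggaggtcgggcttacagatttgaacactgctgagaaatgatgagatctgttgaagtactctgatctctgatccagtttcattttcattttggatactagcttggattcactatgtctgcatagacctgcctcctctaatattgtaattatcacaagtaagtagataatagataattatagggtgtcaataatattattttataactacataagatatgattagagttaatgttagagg
The Hoxa4 centre held 4 matches to ACGTG or GCGTG on either strand, and the other 2 centres held 0. Over the whole peak, the Hoxa4 peak held 5.5 matches per kb, the Hoxb2 peak 1.67, the Hotair peak 1.2 and the Hoxc8 to Hoxc6 peak 0.25. The median over all 589 hypoxia-only peaks was 1.43 per kb, over 14614 shared peaks 1.6 and over 218 normoxia-only peaks 1. A match in the central 300 bases was held by 34.3% of hypoxia-only, 24.3% of normoxia-only and 41.6% of all H3K27ac peaks. The Hoxa4 peak was also richer in GC, at 62.6% against a median of 48.8% in hypoxia-only peaks. The part of GC content in the number of matches was not tested.

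Counted by gene, 7 Hox genes had a hypoxia-only H3K27ac peak in the gene body or within 5 kb, beside 3% of all protein-coding genes. They were Hoxa3, Hoxa4, Hoxb2, Hoxb3, Hoxc5, Hoxc6 and Hoxc8. The 3 peaks were each counted for several genes, and Hoxa3 and Hoxc5 were among them because their annotated bodies run over neighbouring genes. When each peak was given to the gene with the nearest start, the 3 genes were Hoxa4, Hoxb2 and Hoxc8. A normoxia-only H3K27ac peak lay within 5 kb of 0 Hox genes, beside 0.816% of all genes.

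The 17 shared H3K27ac peaks of the clusters, and 1 more within 5 kb of Hoxa2, also had a score in each list. Of these 18, 10 had a higher score in hypoxia, 6 an equal score and 2 a higher score in normoxia, where 39.9% of all 14614 shared peaks were higher in hypoxia. By percentile within the list the count turned, with 5 of the 18 higher in hypoxia and 13 in normoxia, beside 30.3% of all shared peaks higher in hypoxia. By percentile within the chromosome 7 were higher in hypoxia and 11 in normoxia. The largest raw difference was at the Hoxa13 start, with 83 in hypoxia and 51 in normoxia. Around Hoxc8 the scores were 96 and 75 over the gene and 85 and 65 in the peak before it. At Hoxc11 they were 138 and 127, and in the peak after it 139 and 131. The Hoxd peaks differed by at most 3 points, and the blocks over Hoxa7 to Hoxa11 and over Hoxc10 and Hoxc9 had equal scores, 126 and 139, at both levels.

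Scores are comparable between the lists only by rank, and the ranks turned the direction of the median. The median raw difference, hypoxia minus normoxia, was 1 point (quartiles 0 and 7.25), whereas the median difference in percentile within the list was -2.87 (quartiles -4.75 and 2.55), beside -1.67 over all shared peaks. No direction is therefore given for the Hox peaks as a group. The scores also had a ceiling that differed between chromosomes: 470 of 1176 H3K27ac peaks in hypoxia scored 1000 on chromosome 2, 3 of 782 on chromosome 6 and 0 of 651 on chromosome 15. The 1000 at Hoxd8 and the 126 over the Hoxa block hence cannot be ranked against each other. Percentiles within the chromosome put the Hoxa13 peak at 34.5 in hypoxia and 1.49 in normoxia, and the Hoxc8 peak at 39.8 and 28.4.

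**Figure D5:**
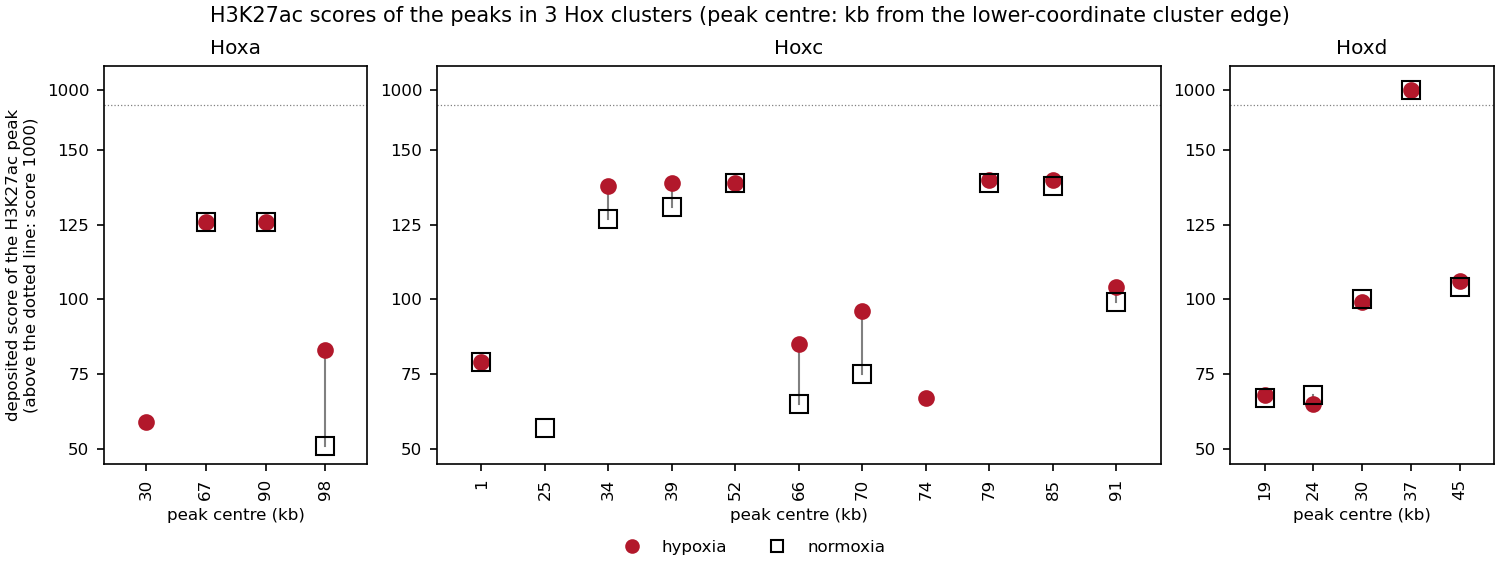
Deposited scores of the H3K27ac peaks in Hoxa, Hoxc and Hoxd (y axis, with 1000 drawn above the dotted line) by position of the peak centre in kb from the lower-coordinate cluster edge, with filled circles for hypoxia and open squares for normoxia. A circle or a square alone is a condition-specific peak, the largest gap of a shared peak is at Hoxa13 (83 and 51), and the single Hoxb peak (54, hypoxia) is left out.

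H3K4me3 scores did not differ between the oxygen levels at any Hox peak, nor at any of the 14600 H3K4me3 peaks that both lists held. These scores therefore give no comparison of the oxygen levels. For the Hoxb islands these scores were 125 at Hoxb9, 83 at Hoxb7, 60 at Hoxb6, 132 at Hoxb4 and 69 at Hoxb2.

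Several microRNAs are transcribed from the clusters and target Hox messages, and their mature sequences are shown because paralogous copies share a seed (bases 2 to 8, in capitals). The sequences are those of RefSeq (GRCm38.p6).
miR-196b-5p: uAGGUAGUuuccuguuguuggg
miR-196a-5p: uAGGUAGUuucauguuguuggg
miR-10a-5p: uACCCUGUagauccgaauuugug
miR-10b-5p: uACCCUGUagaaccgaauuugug
miR-615-3p: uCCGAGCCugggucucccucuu
The copies with the AGGUAGU seed stood in different chromatin. Mir196b (chr6:52230081-52230165) lay inside the 40.5 kb Hoxa peak and Mir196a-2 (chr15:102973350-102973434) inside the 22.5 kb Hoxc peak, each with both marks at both oxygen levels. Mir196a-1 (chr11:96265164-96265265), which gives the same mature miR-196a-5p, lay in Hoxb in no peak and 5337 bp from the nearest one. The copies with the ACCCUGU seed carried less: Mir10a had H3K4me3 within 836 bp and no H3K27ac, and Mir10b lay 9570 bp from any peak. Mir615 lay with the Hoxc5 and Hoxc6 coding starts in a peak of both marks. A peak over a microRNA gene here is a peak of the host region and does not tell which transcript is made.

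Among the other transcribed units of the clusters, Hotairm1, beside the anterior end of Hoxa, carried both marks. Hottip, at the Hoxa13 end, had no peak over the gene. An H3K4me3 peak of 500 bp (chr6:52261501-52262000, score 59) lay within 1000 bp of its start and touched the Hoxa13 peak. Evx1 and Evx2, homeobox genes that border Hoxa and Hoxd, had an H3K4me3 peak in the gene and none at the start. On the 100 kb flanks of the clusters there were 4 H3K27ac and 9 H3K4me3 peaks, and 0 of either were condition-specific. The flank H3K27ac peaks lay at Hotairm1 (score 126 at both levels), at the start of Mtx2 beyond Hoxd1 (91 at both), 94.4 kb before Hoxa2 (63 at both) and 54.1 kb before Hoxc13 (54 and 53).

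The genes of proteins that work with or regulate Hox factors were read in the same way, beside the 36.5% of all protein-coding genes with both marks and the 22.4% with H3K4me3 alone. Of 9 genes of the TALE family, which encode DNA-binding partners of Hox proteins, 7 carried both marks and 2, Pbx4 and Meis3, carried H3K4me3 alone. Pknox2 was the exception between the oxygen levels, with H3K27ac at its start in hypoxia alone (score 95). Of 14 Polycomb genes, 10 carried both marks, and Ezh1, Cbx2, Cbx7 and Cbx8 carried H3K4me3 alone. All 7 Trithorax and H3K27 demethylase genes carried both marks, Kdm6a and Kdm6b included. Of 9 upstream regulators, Rara, Rarg, Gdf11 and Ctcf carried both marks, Rarb and Fgf8 H3K4me3 alone, and Cdx1, Cdx2 and Cdx4, the caudal genes that open the central Hox genes in the embryo, neither. Besides Pknox2, a condition-specific H3K27ac peak lay in the gene or within 5 kb for 1 gene in each of the Polycomb, Trithorax and upstream lists, namely Ezh1, Kmt2a and Rara, each hypoxia-only. A hypoxia-only H3K27ac peak lay that close to 3% of all genes, and nothing particular to these lists is read from single genes.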

How the data were processed

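ChIP-seq peak lists of H3K27ac and H3K4me3 in MSCs at 2% and 21% oxygen were analysed. As the methods state, the authors aligned reads to mm10 with bowtie2 and discarded Picard duplicates. Their peaks come from the differential mode of chromstaR (bin 1000, step 500, mapping quality at least 15), with 1 list per mark and oxygen level from 2 libraries each. The deposited score of each peak, 50 to 160 or 1000, is the authors' value, and its definition is not given in the sources used here. It was used to rank or filter peaks. The lists hold no counts, so the depth is unknown.

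The Hox genes, lists and rules were chosen with earlier results of these data known. 1 Hox gene and 2 haematopoietic genes of the marker list are not reported here, so the haematopoietic count is of part of that list. Coding starts came from the GENCODE basic annotation of mm10. Peaks within 1000 bp of a start set its state. All 38 Hox genes are named, with coordinates for the widest and condition-specific peaks and for genes without H3K4me3 at a start. Shares have Wilson 95% intervals (scipy 1.17.1). Sequence was read with pysam 0.24.0, and tables were handled with pandas 2.3.3. Interval functions were tested on simulated data. The alternatives were other start windows and starts, gene flanks, a score filter, other score scales and narrower cluster flanks.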

Additional observations from a re-analysis of the deposited data

How the results depend on the processing

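No paired analysis was possible because a list pools the libraries of its group, and for the same reason no replicate could be left out. Of 39 alternatives over 12 values, 28 left the value within a set margin, 10 moved it and 1 reversed it. The margin was a fixed fold for counts, a Wilson interval for covers and the quartiles for the score difference. It is a convention and does not measure the error of a value. The reversed value is the median score difference of the shared H3K27ac peaks, -2.87 in percentiles and 1 in raw points. Without the lowest-scoring 25% of each list, H3K4me3 lay at 15 Hox starts at each oxygen level in place of 28, H3K4me3 cover fell to 19.3% at both levels, and H3K27ac cover to 24.8% in hypoxia and 23.3% in normoxia. That filter kept H3K4me3 scores of at least 124, above every Hoxd peak, on a chromosome where the most frequent score was 121. It left 4 genes with a condition-specific peak (Hoxa13, Hoxc5, Hoxc8 and Hoxc9), and none of the 4 condition-specific peaks of the clusters passed it. The genes listed under it arose where the peak of the other list was removed. Giving each peak to the nearest start left 3 genes. With flanks of 50 kb, 1 H3K27ac and 4 H3K4me3 peaks remained. Scoring by principal transcripts and by chromosome percentile (median -2.2) was added after seeing the data.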

Other observations

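The score ceiling differed by mark as well as by chromosome. On chromosome 15, which holds Hoxc, 518 of 596 H3K4me3 peaks in hypoxia scored 1000, and 5 of the 7 Hoxc H3K4me3 peaks were among them. On chromosome 2, which holds Hoxd, 0 of 1185 did. On chromosome 11, which holds Hoxb, 308 of 1149 H3K4me3 peaks scored 1000 and none of the 5 Hoxb peaks did.

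Inside Hoxa, 2 more H3K4me3 peaks had no H3K27ac and held no coding start of a member. One (chr6:52175001-52177000, score 125) covered the start of the antisense transcript Hoxaas3 within the annotated Hoxa3 body, and the other (chr6:52190001-52191000, score 125) lay in the Hoxa4 body within 1000 bp of the Hoxa4 start and touched the hypoxia-only peak. In Hoxc an H3K4me3 peak of 1.5 kb (chr15:102942501-102944000, score 132) touched the normoxia-only Hotair peak.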
